A study of Mus musculus with 6 samples.

Results

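Heparan sulfate proteoglycans are core proteins that carry long sulfated sugar chains. Their core genes were followed here in MC3T3-E1, a mouse line of calvarial pre-osteoblasts. The members were taken by gene symbol from a list drawn up with earlier results of these data known: the glypicans Gpc1, Gpc2, Gpc3, Gpc4 and Gpc6, the syndecans Sdc1, Sdc2, Sdc3 and Sdc4, and perlecan, encoded by Hspg2. Of the 10 genes listed, 9 were read among the 26187 genes with values, and Gpc2 was not analysed here. Of these 9 genes, 8 reached a mean of 0.5 FPKM over the libraries and were tested, whereas Gpc3 did not. FPKM counts fragments scaled by transcript length and by the mapped fragments of the library, so levels of different genes can be set side by side.

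The PAKG group was MC3T3-E1 cells given PAKG–8diol–PEG(S) MPs, microparticles of a polymer made from α-ketoglutarate, a diol and polyethylene glycol, at 30 μg/mL. The OC group was the same line in the same osteoconductive (OC) medium with no MPs. Both groups were harvested after 2 days, both media held ascorbic acid and β-glycerophosphate, and 3 samples a group went into poly(A) RNA sequencing. The comparison asks which genes respond to PAKG MPs in pre-osteoblasts. All samples come from 1 cell line. Cell experiments of the study were set up in triplicate wells, but the link between these wells and the sequenced samples is not stated. Each p-value therefore covers the spread among these 6 samples alone, which may be technical.

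Estimated depth was 33100000 to 42700000 fragments in PAKG and 32500000 to 37300000 in OC, so that 1 fragment on 1 kb was worth 0.0234 to 0.0308 FPKM. All 8 osteoblast lineage markers averaged at least 1 FPKM, and their summed level was 7040 to 7750 FPKM in PAKG and 4950 to 5960 FPKM in OC. Most of this sum was Col1a1 and Col1a2, which averaged 4430 and 2405 FPKM in PAKG. Spp1 went the other way, at 192 FPKM in PAKG and 272 FPKM in OC (log2 fold change -0.50, limma adjusted p = 0.0186). Every other marker of the list had all PAKG values above all OC values. Bglap differed most, at 19.35 FPKM in PAKG and 0.853 FPKM in OC (log2 fold change 4.36, limma adjusted p = 1.89e-05). Alpl and Sp7 had log2 fold changes of 1.61 and 1.35. Endothelial markers summed to 0.03 FPKM in PAKG and at most 0.02 FPKM in OC, and Ptprc, the pan-leukocyte marker, was at 0 in PAKG and at most 0.01 FPKM in OC. The sums of 4 other lists also moved with the group. Of 5 chondrocyte genes 2, Sox9 and Col2a1, averaged at least 1 FPKM, and the list summed to 59.5 to 62.4 FPKM in PAKG and 18.5 to 20.7 FPKM in OC. The leukocyte list had 1 of 5 genes at that level, Lyz2, and summed to 16.0 to 17.6 FPKM in PAKG and 9.21 to 12.1 FPKM in OC, and the neuronal list had 1 of 4, Tubb3, and summed to 9.99 to 10.3 FPKM in PAKG and 5.99 to 7.33 FPKM in OC. The skeletal muscle list had 0 of 3 genes at that level and summed to 0.79 to 0.89 FPKM in PAKG and 0.62 to 0.74 FPKM in OC. The sums of the epithelial list overlapped, at 0.36 to 0.85 FPKM in PAKG and 0.33 to 0.38 FPKM in OC. So did those of the adipocyte list, at 0 to 0.04 FPKM in PAKG and 0.02 to 1.25 FPKM in OC, where OC 3 was the highest. Their part in the results below was not tested. In bulk RNA, fewer cells of a type and less RNA per cell cannot be told apart.

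Glypicans are tied to the cell surface by a glycosylphosphatidylinositol (GPI) anchor, syndecans cross the membrane and end in a short cytoplasmic tail, and perlecan is secreted into basement membranes and cartilage matrix. Their heparan sulfate chains hold growth factors such as FGFs, BMPs and Wnts, present them to receptors, and are trimmed or shed by extracellular enzymes. In bone, these proteoglycans are known as co-receptors that tune growth factor signals in osteoblast lineage cells.

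The tails set the syndecans apart as a family, and the 3′ ends of the coding sequences are shown. Only part of this stretch is the same in all 4 members, mostly at its very end. In level, Sdc3 and Sdc4 were higher and Sdc2 was lower in PAKG. Each line gives the last 60 coding bases, stop codon included, on GRCm38 with the GENCODE M21 transcripts; capitals mark the 14 positions with the same base in all 4 genes. Each stretch lies in the last exon, and its end encodes the PDZ-binding end of the tail, which holds syntenin and CASK.
Sdc1, chr12:8791748-8791807, plus strand: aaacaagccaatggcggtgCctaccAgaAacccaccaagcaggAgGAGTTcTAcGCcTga
Sdc2, chr15:33032481-33032540, plus strand: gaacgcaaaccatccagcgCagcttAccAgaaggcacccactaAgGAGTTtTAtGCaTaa
Sdc3, chr4:130822750-130822809, plus strand: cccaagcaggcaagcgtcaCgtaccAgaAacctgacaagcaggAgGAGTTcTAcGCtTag
Sdc4, chr2:164426086-164426145, minus strand: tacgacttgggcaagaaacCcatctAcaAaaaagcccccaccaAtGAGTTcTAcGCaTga

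The closest pair in this stretch was Sdc1 with Sdc3, with 38 of 60 bases identical, followed by Sdc2 with Sdc4 with 31. The other 4 pairs shared 22 to 26 bases. Each of the closest pairs held 1 member with higher and 1 with lower mean FPKM in PAKG. No 31-base word was shared between any of the 9 proteoglycan transcripts, so the family members could be counted apart.

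With the thresholds the study used (fold change 2 or more, adjusted p under 0.05), none of the 8 tested members was called by limma, against 1.45% of all 12590 genes tested. At an unadjusted p under 0.05 there were 6 members, against a background of 28.8%. At the adjusted p alone, 4 of 8 members passed, against a background of 14.7%. Sdc4, Gpc1 and Sdc3 were higher in PAKG (background of higher calls 5.97%) and Sdc2 was lower (background of lower calls 8.73%). The median log2 fold change was 0.40 over the 8 members and -0.03 over all genes tested. In 6 of 8 members the PAKG and OC values did not overlap, against a background of 33.4%, with Gpc1, Gpc4, Sdc3 and Sdc4 above and Sdc1 and Sdc2 below OC. The values of Gpc6 and Hspg2 overlapped.

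Samples of both groups carry the replicate numbers 1 to 3, and samples with the same number deviated from their group means together. This was clearest for replicate 2, where the deviations correlated at 0.430, against 0.240 for replicate 1 and 0.192 for replicate 3. The highest correlation between unlike numbers was 0.138, for PAKG 3 with OC 1. A block on the number was chosen from these same values, which its p-values do not allow for. With the number fitted as a block, all 8 members passed an adjusted p under 0.05 in limma, against a background of 29.5%. Of these, 6 were higher in PAKG (background 12.3%) and 2 were lower (17.1%). All 3 same-numbered differences had 1 sign in each of the 8 members, against 60.6% of all genes tested. For the 6 members whose groups did not overlap this was fixed beforehand. Only Gpc6 and Hspg2 could have differed, so the count adds little to the comparison above. None reached a 2-fold change in this fit either, against 1.6% of all genes called at both thresholds.

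**Figure D1:**
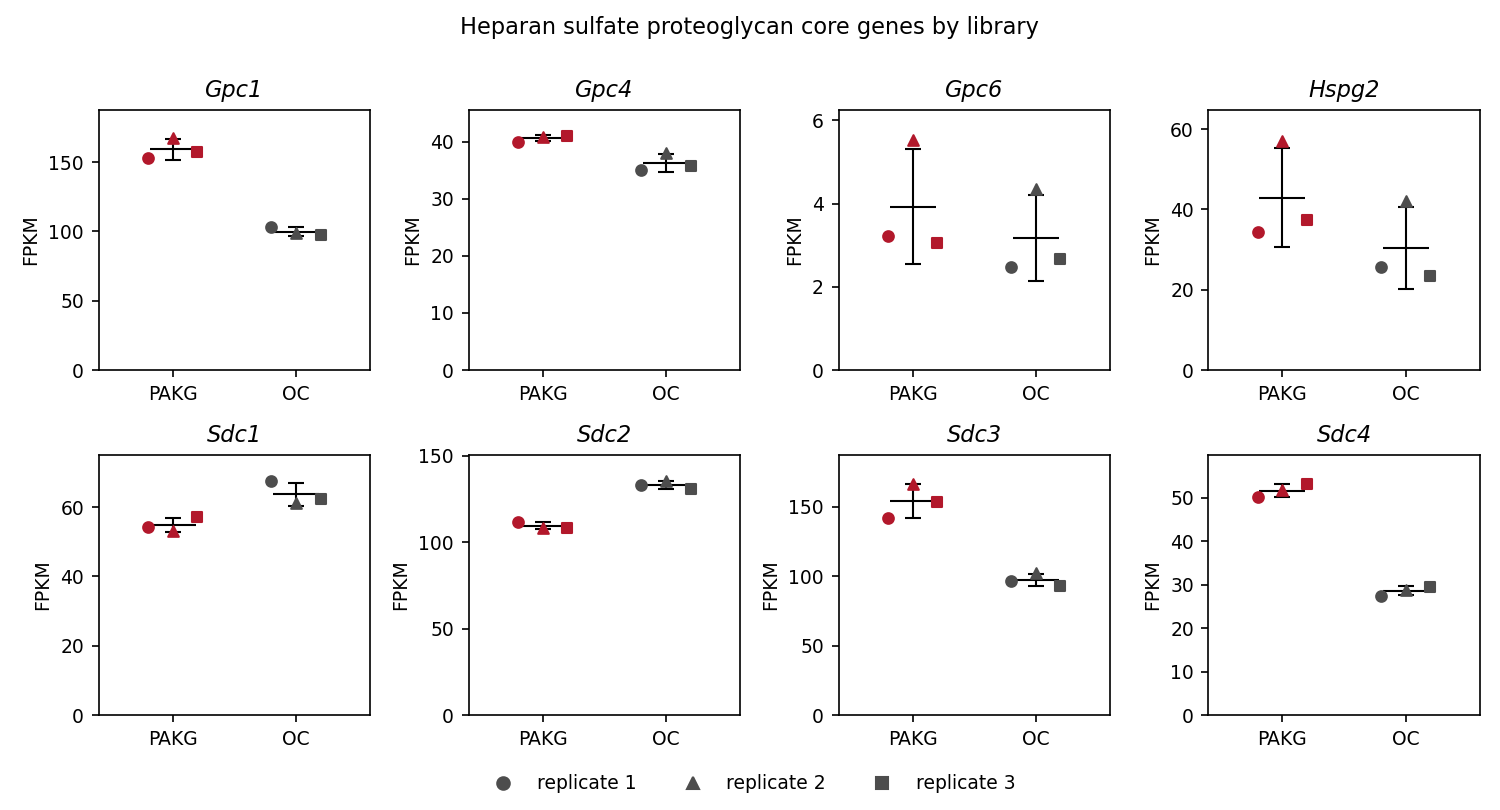
FPKM of the 8 tested members in each library (vertical axes start at 0), PAKG in red at the left and OC in grey at the right of each panel. Symbols give the replicate number, long bars the mean and error bars the SD (n = 3). Gpc1, Gpc4, Sdc3 and Sdc4 have all PAKG libraries above OC, Sdc1 and Sdc2 have all below, and replicate 2 stands high in both groups for Gpc6 and Hspg2.

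Syndecans are the transmembrane members. Sdc4 encodes syndecan-4, the focal adhesion syndecan that acts with integrins and protein kinase C. Its level was 50.11, 51.72 and 53.09 FPKM in PAKG replicates 1 to 3, against 27.51, 28.81 and 29.50 FPKM in OC. The groups lay far apart, and within each the 3 libraries were close. Sdc4 averaged 51.6 ± 1.49 FPKM in PAKG and 28.6 ± 1.01 FPKM in OC (SD, n = 3 each), a log2 fold change of 0.85 ± 0.06 (SE; limma adjusted p = 0.000377) on the log2(FPKM + 0.1) scale. This 1.80-fold difference was the largest among the members and had the smallest adjusted p. The 3 same-numbered differences, PAKG minus OC, were 0.86, 0.84 and 0.85 on the log2 scale. The gene spans 164424247-164443887 on chromosome 2, minus strand, and its main transcript has 5 exons and 2458 bases.

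Sdc3 encodes syndecan-3, known from neural and musculoskeletal tissue. It was read at 142.08, 166.55 and 153.19 FPKM in PAKG, against 96.84, 101.96 and 92.82 FPKM in OC. Replicate 2 was the highest of each group and the groups did not overlap. Sdc3 averaged 154 ± 12.3 FPKM in PAKG and 97.2 ± 4.58 FPKM in OC (SD, n = 3 each), with a log2 fold change of 0.66 ± 0.08 (SE; limma adjusted p = 0.00219), or 1.58-fold. The gene lies on chromosome 4 at 130792537-130826319, plus strand. Of its 31-base words, 7.2% also occur in the antisense gene Gm26716, which was not analysed here, and in Sdc1, Sdc2 and Sdc4 at most 3.39% occurred in any other gene.

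Sdc2 encodes syndecan-2, which is typical of mesenchymal cells. Its 3 PAKG libraries held 111.97, 108.52 and 108.35 FPKM, against 132.92, 135.46 and 130.55 FPKM in OC. Within a group the values lay within a few FPKM of each other, and all PAKG values were below all OC values. Sdc2 averaged 109.6 ± 2.04 FPKM in PAKG and 133 ± 2.46 FPKM in OC (SD, n = 3 each), a log2 fold change of -0.28 ± 0.06 (SE; limma adjusted p = 0.0240). The call was lost without PAKG 1 (adjusted p = 0.0618), PAKG 3 (0.133), OC 1 (0.0806), OC 2 (0.0641) or OC 3 (0.0825), and with all libraries rescaled to a common total (0.0704), whereas the log2 fold change stayed between -0.29 and -0.23. With the replicate block its adjusted p was 0.00777.

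Sdc1 encodes syndecan-1, best known from epithelia and plasma cells and also made by osteoblast lineage cells. The libraries gave 54.36, 53.05 and 57.17 FPKM in PAKG, against 67.50, 61.05 and 62.34 FPKM in OC. The groups did not overlap, but the highest PAKG and lowest OC libraries were close. With 54.9 ± 2.11 FPKM in PAKG and 63.6 ± 3.41 FPKM in OC (SD, n = 3 each), the log2 fold change of -0.21 ± 0.07 (SE) did not pass (limma adjusted p = 0.0878). With the replicate block it did (adjusted p = 0.0312), and the same-numbered differences were -0.31, -0.20 and -0.12.

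**Figure D2:**
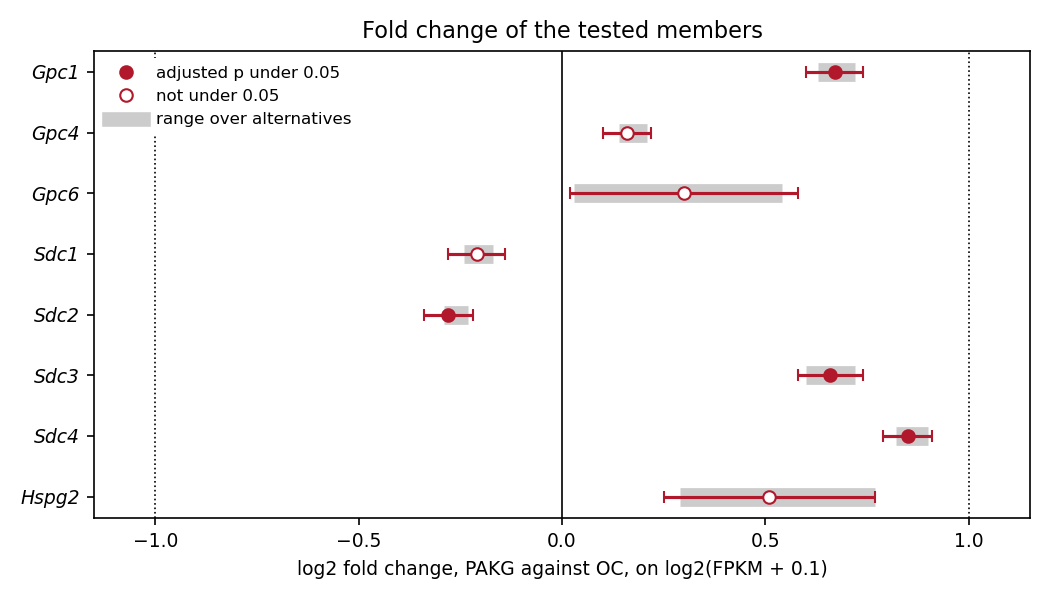
Log2 fold change of each tested member, PAKG against OC, on the log2(FPKM + 0.1) scale, with its SE as the error bar. Filled points passed an adjusted p under 0.05 in limma, grey bands span all alternatives computed, and dotted lines mark a 2-fold change. Sdc4 at 0.85 lies nearest to the 2-fold line, and the bands of Hspg2 (0.29 to 0.77) and Gpc6 (0.03 to 0.54) are the widest.

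The syndecan sum was higher in PAKG, at 370 ± 10.8 FPKM, than in OC, at 322 ± 6.37 FPKM (SD, n = 3 each), and its makeup differed. Sdc3 took 41.6 ± 2.13% of the sum in PAKG and 30.1 ± 0.898% in OC. Sdc2, the leading syndecan in OC, took 29.6 ± 1.4% in PAKG and 41.2 ± 0.275% in OC. So the most abundant syndecan was Sdc3 in every PAKG library and Sdc2 in every OC library. Sdc4 made up 14.0 ± 0.332% in PAKG and 8.88 ± 0.449% in OC, and Sdc1 made up 14.8 ± 0.760% in PAKG and 19.7 ± 1.07% in OC. These shares sum to 100% within a library and so are not independent of each other.

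**Figure D3:**
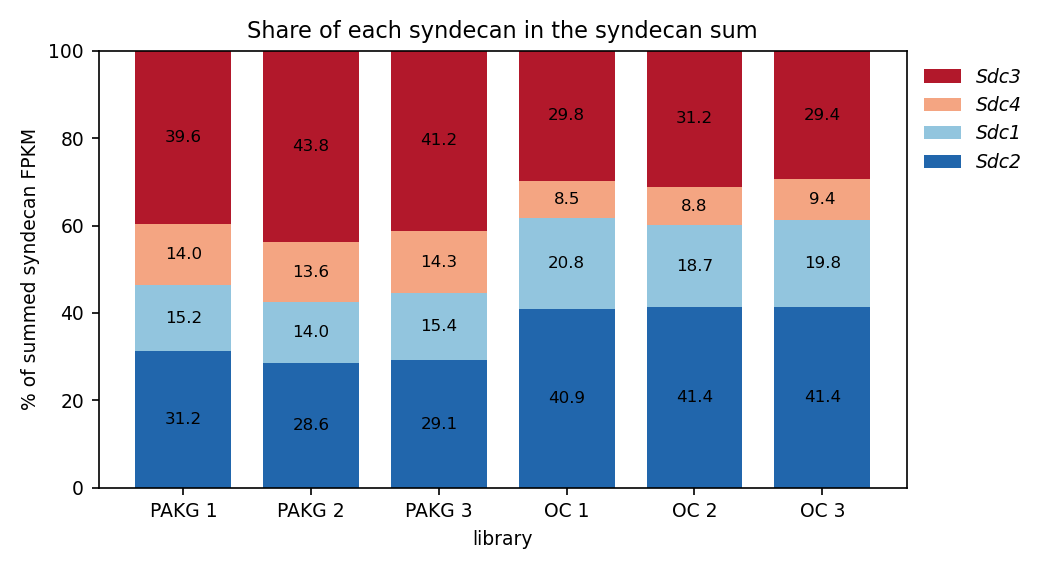
Share of each syndecan in the summed syndecan FPKM of each library, in percent of the sum (stacked to 100), with the 3 PAKG libraries left of the 3 OC libraries. Sdc3 and Sdc4, at the top, take more of each PAKG bar, and Sdc1 and Sdc2, at the bottom, take more of each OC bar.

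Ratios of 2 members within a library do not depend on how libraries were scaled. The pairs were chosen with the levels known, and 6 ratios were compared. Sdc4/Sdc1 was 0.942 ± 0.0289 in PAKG and 0.451 ± 0.0375 in OC (SD, n = 3 each), so that syndecan-4 transcripts neared the level of syndecan-1 transcripts in PAKG and not in OC. Sdc3/Sdc2 was 1.41 ± 0.133 in PAKG and 0.731 ± 0.0209 in OC, above 1 in all PAKG libraries and below 1 in all OC libraries. Among the glypicans, Gpc1/Gpc4 was 3.92 ± 0.152 in PAKG and 2.76 ± 0.174 in OC. In 5 of the 6 ratios the groups did not overlap. Each of these 5 gave p = 0.1 in the exact permutation test (2-sided), the smallest p that 3 against 3 samples allow, and 0.12 after adjustment over the 6 ratios. For Sdc4/Sdc1, Sdc3/Sdc2, Sdc4/Sdc2 and Gpc1/Sdc2 this outcome was fixed beforehand. In each, the first gene had all PAKG values above OC and the second had all below. These ratios therefore add no support beyond the member values. Hspg2/Gpc4, at 1.06 ± 0.297 in PAKG and 0.834 ± 0.241 in OC, overlapped (exact permutation p = 0.4).

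Among the GPI-anchored glypicans, Gpc1 stood out. Glypican-1 is a co-receptor for FGFs and BMPs. It was read at 152.91, 167.20 and 157.18 FPKM in PAKG, against 103.09, 99.12 and 97.12 FPKM in OC, with no overlap. Gpc1 averaged 159 ± 7.34 FPKM in PAKG and 99.8 ± 3.04 FPKM in OC (SD, n = 3 each), a log2 fold change of 0.67 ± 0.07 (SE; limma adjusted p = 0.00109), or 1.59-fold. The same-numbered differences were 0.57, 0.75 and 0.69. The gene lies on chromosome 1 at 92831645-92860779, plus strand, and its main transcript has 9 exons and 4176 bases. Of the 31-base words of Gpc1, 22.84% also occur in Ankmy1, which overlaps it on the opposite strand and was at most 0.02 FPKM in any library.

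Gpc4 encodes glypican-4, known for its part in Wnt and BMP signalling. Its values were 39.95, 40.82 and 40.94 FPKM in PAKG, against 34.96, 38.01 and 35.69 FPKM in OC. All PAKG values were above all OC values, by a small margin. Gpc4 averaged 40.6 ± 0.540 FPKM in PAKG and 36.2 ± 1.59 FPKM in OC (SD, n = 3 each), and the log2 fold change of 0.16 ± 0.06 (SE) did not pass (limma adjusted p = 0.136), although it did with the replicate block (adjusted p = 0.0429). Gpc3, its neighbour on X, was listed at 0 in all 3 PAKG libraries and in OC 2 and OC 3, and at 0.02 FPKM in OC 1. The 2 genes lie 107 kb apart on the minus strand with no annotated gene between them, Gpc4 at 52053021-52165252 and Gpc3, a glypican known as a fetal growth regulator, at 52272426-52613950.

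Gpc6 encodes glypican-6, known for its part in long bone growth. It was low, at 3.22, 5.52 and 3.05 FPKM in PAKG, against 2.48, 4.35 and 2.67 FPKM in OC. Replicate 2 was the highest in both groups, and the groups overlapped. The log2 fold change was 0.30 ± 0.28 (SE; limma adjusted p = 0.536), and 0.03 without PAKG 2 or 0.54 without OC 2. With the replicate block the same estimate had an SE of 0.07 and an adjusted p of 0.0288, and the same-numbered differences were 0.36, 0.34 and 0.19. With replicate 2 of both groups left out the adjusted p was 0.0866.

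Perlecan, the secreted member, is a large modular protein that binds laminin, nidogen and growth factors. Hspg2 was read at 34.49, 57.11 and 37.29 FPKM in PAKG, against 25.65, 42.12 and 23.53 FPKM in OC. Here too replicate 2 was far above the others in both groups, and OC 2 exceeded PAKG 1 and PAKG 3. Hspg2 averaged 43.0 ± 12.3 FPKM in PAKG and 30.4 ± 10.2 FPKM in OC (SD, n = 3 each), and the log2 fold change of 0.51 ± 0.26 (SE) did not pass (limma adjusted p = 0.243). With the replicate block the SE was 0.06 and the adjusted p 0.00372, and with replicate 2 of both groups left out the log2 fold change was 0.54 (adjusted p = 0.00637). Leaving out PAKG 2 alone gave 0.29 and leaving out OC 2 alone gave 0.77. Each PAKG library exceeded the OC library of its number, by 0.43, 0.44 and 0.66 on the log2 scale.

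Replicate 2 was 1.53 times the next highest library in PAKG and 1.64 times in OC for Hspg2, and 1.71 times in PAKG and 1.63 times in OC for Gpc6. Of all genes tested, 1.05% had replicate 2 over 1.4 times the next library in both groups. Replicate 2 libraries were also high for long transcripts in general. For genes whose longest protein-coding transcript had 10 kb or more, replicate 2 lay above the mean of replicates 1 and 3 by a median of 0.42 in PAKG and 0.38 in OC on the log2 scale. For those of 2 to 5 kb the medians were -0.01 in PAKG and 0.00 in OC, and under 2 kb they were -0.25 in PAKG and -0.18 in OC. The main transcript of Hspg2, on chromosome 4 at 137468769-137570630, plus strand, has 97 exons and 14176 bases, and its deviations were 0.67 in PAKG and 0.78 in OC, whereas those of Gpc6 were 0.80 in PAKG and 0.74 in OC. The longest protein-coding transcript of Gpc6 has 3488 bases, so Gpc6 falls in the class of 2 to 5 kb, whose medians were close to 0. For the other 6 members they lay between -0.09 and 0.17. The part of this length pattern in the values of Hspg2 was not tested.

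**Figure D4:**
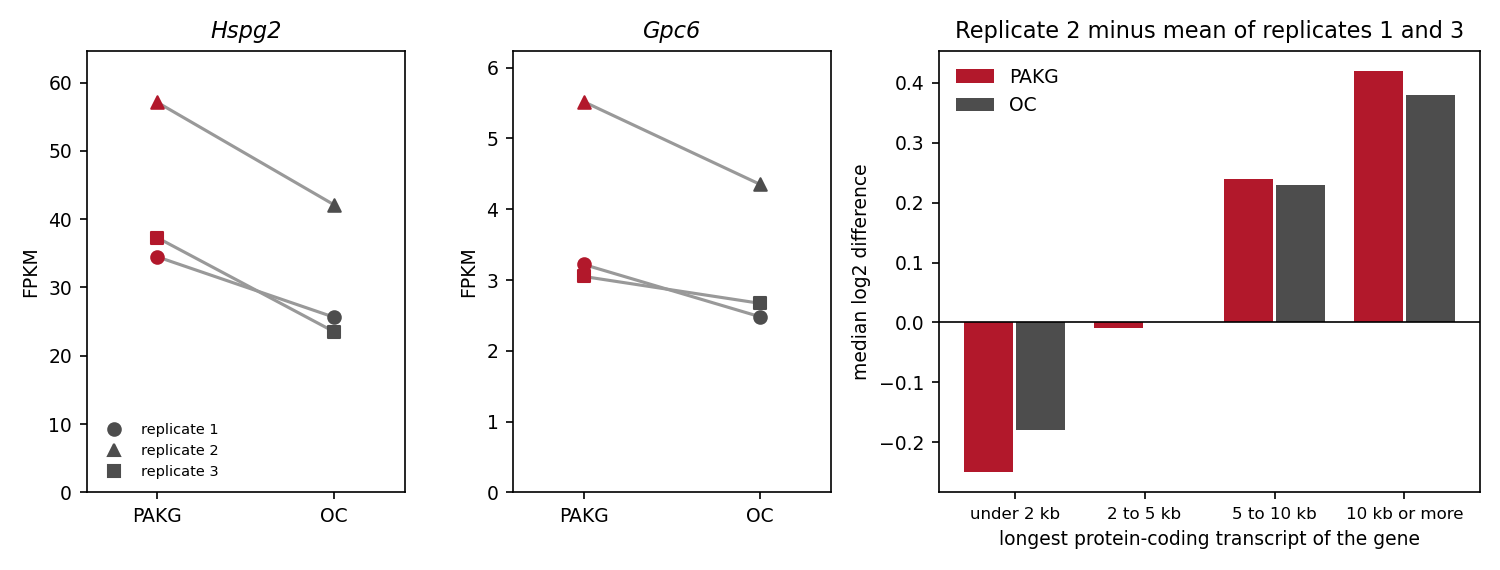
Left and middle, FPKM of Hspg2 and Gpc6, with lines joining PAKG and OC libraries of the same replicate number; every line is higher at its PAKG end. Right, median log2 difference of replicate 2 from the mean of replicates 1 and 3 over all genes tested, by the length of the longest protein-coding transcript, with the 10 kb class at 0.42 in PAKG and 0.38 in OC.

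In PAKG the order of levels was Gpc1, Sdc3, Sdc2, Sdc1, Sdc4, Hspg2, Gpc4, Gpc6 and Gpc3, and in OC it was Sdc2, Gpc1, Sdc3, Sdc1, Gpc4, Hspg2, Sdc4, Gpc6 and Gpc3. Gpc1 and Sdc3 overlapped in both groups, so their order cannot be given. In PAKG, the neighbours from Sdc1 through Sdc4 and Hspg2 to Gpc4 also overlapped, and in OC those from Gpc4 through Hspg2 to Sdc4. Sdc2 stood apart from its neighbours in both groups. The 9 genes together summed to 617 ± 31.2 FPKM in PAKG and 492 ± 18.4 FPKM in OC (SD, n = 3 each). Glypicans made up 33.0 ± 0.235% of this sum in PAKG and 28.3 ± 0.523% in OC, syndecans 60.1 ± 1.44% in PAKG and 65.6 ± 1.31% in OC, and perlecan 6.91 ± 1.62% in PAKG and 6.14 ± 1.82% in OC.

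Promoter sequence is shown for Sdc4 and Sdc3, the 2 called syndecans with higher levels in PAKG, and for Gpc3, the member listed at or near 0. Each line is the window of 120 bases upstream of the most upstream protein-coding start, 5′ to 3′ on the strand of the gene, from RefSeq sequence on GRCm38.p6. Capitals mark GC boxes (GGGCGG on either strand).
Sdc4, chr2:164443189-164443308, minus strand: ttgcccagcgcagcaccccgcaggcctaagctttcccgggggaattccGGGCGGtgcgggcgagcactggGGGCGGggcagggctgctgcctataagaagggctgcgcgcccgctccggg
Sdc3, chr4:130792417-130792536, plus strand: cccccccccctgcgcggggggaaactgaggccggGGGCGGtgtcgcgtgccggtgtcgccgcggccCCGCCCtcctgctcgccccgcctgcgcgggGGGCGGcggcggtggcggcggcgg
Gpc3, chrX:52613975-52614094, minus strand: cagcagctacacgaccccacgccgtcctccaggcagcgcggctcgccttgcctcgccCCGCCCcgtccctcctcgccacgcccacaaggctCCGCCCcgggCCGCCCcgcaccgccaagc

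Windows could be taken for 5 members, and all of them held GC boxes: 2 in Sdc4 and Sdc1 and 3 in Sdc3, Hspg2 and Gpc3. Of all 32851 windows of this length, 26.5% held at least 1. Those windows end at the start of each promoter entry, whether or not its gene was read here. Member windows end at the most upstream protein-coding start, so the sets are not strictly alike. GC content was 73.3% in Sdc4, 86.7% in Sdc3, 72.5% in Sdc1, 73.3% in Hspg2 and 78.3% in Gpc3, against a median of 54.2% over all windows. A CCAAT box (CCAAT on either strand) was found in Sdc1 only, against 21.3% of all windows. No match was found in these 5 for the TATA box TATAAA (6.3% of all windows), the E box CACGTG (3.7%) or the AP-1 motif TGANTCA (3.4%), on either strand. The TATA box was searched as this exact word, and the Sdc4 window holds TATAAG, which differs from it in the last base. The motifs searched do not overlap one another in these windows. The Sdc4 window lies in an intron of a noncoding Sdc4 transcript that starts farther upstream. Gpc3, listed at 0 in 5 of the 6 libraries, held as many GC boxes as Sdc3, whose level was 92.82 FPKM or more in every library.

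The 4 genes whose pattern over the 6 libraries lay closest to that of Sdc4 were Aspn, Tmie, Tgfb1 and Tmem44. Closeness was the root mean square difference of log2(FPKM + 0.1) values centred per gene, and it was 0.044 for Aspn, 0.047 for Tmie, 0.058 for Tgfb1 and 0.059 for Tmem44. Aspn encodes asporin, a small leucine-rich matrix protein, and had 504.37, 514.44 and 489.51 FPKM in PAKG, against 273.45, 288.66 and 283.72 FPKM in OC. Tgfb1, the growth factor TGF-β1, had 12.94, 12.29 and 13.16 FPKM in PAKG, against 7.40, 7.07 and 7.43 FPKM in OC.

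Called counts of the 12 pathway lists stand against the share of all genes tested at adjusted p under 0.05 in limma. That background was 14.7% (5.97% higher and 8.73% lower), and 29.5% with the replicate block (12.3% higher and 17.1% lower). Among 10 other genes for heparan sulfate carriers, 6 were tested, with a median log2 fold change of 0.03, and at adjusted p under 0.05 in limma 1 was higher and 3 were lower in PAKG. With the replicate block 3 were higher and 3 lower, the gains being Agrn, the agrin gene (limma adjusted p = 0.0108), and Nrp1, which encodes the co-receptor neuropilin-1 (0.00593), each with a log2 fold change of 0.46. Spock2, which encodes testican-2, had 18.15, 20.35 and 19.15 FPKM in PAKG, against 14.50, 13.84 and 12.84 FPKM in OC (log2 fold change 0.48, limma adjusted p = 0.00682). Cd44, the hyaluronan receptor, had 46.71, 55.01 and 48.00 FPKM in PAKG, against 65.91, 75.04 and 70.08 FPKM in OC (log2 fold change -0.50, limma adjusted p = 0.00993, and 0.0556 without PAKG 3). The other lower genes were Tgfbr3, the betaglycan gene, and Col18a1, which encodes collagen XVIII, with log2 fold changes of -0.78 and -0.41. So carriers outside the 3 families also moved in both directions.

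Chains are built in the Golgi on a linkage tetrasaccharide, lengthened by exostosins, and then modified by sulfotransferases. Of 28 genes on these 4 lists, 16 were tested, with a median log2 fold change of 0.02, and 3 were higher and 0 lower at adjusted p under 0.05 in limma (3 with an unadjusted p under 0.05; 3 higher and 2 lower with the replicate block). All 3, namely B4galt7, B3gat3 and B3galt6, belong to the linkage list, which had 6 tested genes. B3galt6 lay closest to the threshold, at 1.96 FPKM in PAKG and 1.32 FPKM in OC (log2 fold change 0.55, limma adjusted p = 0.0492). Its values under the alternatives are not given here. B4galt7, the galactosyltransferase that adds the first galactose, averaged 7.70 FPKM in PAKG and 5.87 FPKM in OC (log2 fold change 0.39, limma adjusted p = 0.0398), a call lost when any 1 of the 6 libraries was left out (0.0551 to 0.120). B3gat3, the glucuronyltransferase that completes the linker, averaged 14.0 FPKM in PAKG and 10.9 FPKM in OC (log2 fold change 0.37, limma adjusted p = 0.0398), a call lost without PAKG 1 (0.121), PAKG 3 (0.132), OC 2 (0.103) or OC 3 (0.146). B4galt7 and B3gat3 also lost their calls with no filter (limma adjusted p = 0.0812 and 0.0774). The same held for eBayes with no trend (0.0574 and 0.0626). The polymerase genes Ext1 and Ext2 had log2 fold changes of 0.08 and 0.15, and Ndst1, which starts sulfation, had -0.01, none of them past the test.

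Editing and breakdown of the chains were covered by 3 lists. Sulf2, an extracellular sulfatase, was the only 1 of 4 sulfatases and heparanases tested. It had 80.64, 87.99 and 81.28 FPKM in PAKG, against 83.77, 90.20 and 76.81 FPKM in OC (limma adjusted p = 0.988). Of 9 tested genes for sugar nucleotide and sulfate donor supply, 0 were higher and 1 was lower (0.02 median log2 fold change; 1 higher and 1 lower with the replicate block). This was Ugdh, which makes UDP-glucuronic acid, at 15.4 FPKM in PAKG and 19.6 FPKM in OC (log2 fold change -0.34, limma adjusted p = 0.0113; 0.0763 without PAKG 3 and 0.0602 without OC 3). All 9 lysosomal degradation genes were tested, with a median log2 fold change of 0.19, and 1 was higher, or 5 with the replicate block.

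Core proteins are released from cells by metalloproteinases that cut syndecans and by enzymes that act on the GPI anchor. Of 15 genes on this list 9 were tested, with a median log2 fold change of 0.38, and 5 were higher and 1 was lower at adjusted p under 0.05 in limma. The lower gene, Notum, encodes a secreted enzyme that inactivates Wnt proteins and has been reported to release glypicans. It was the only gene of all 12 pathway lists past both thresholds. Its level was 0.31, 0.41 and 0.29 FPKM in PAKG, against 0.81, 0.77 and 0.85 FPKM in OC (log2 fold change -1.07, limma adjusted p = 0.0138). The call was lost without PAKG 3 (-0.99, adjusted p = 0.0580), OC 1 (0.0501) or OC 3 (0.0701). At so low a level the size depended on the pseudocount: the log2 fold change was -0.44 with a pseudocount of 1, under the 2-fold threshold, and -1.26 with 0.01. Mmp14, a membrane metalloproteinase that can cut syndecan-1, averaged 122 FPKM in PAKG and 85.1 FPKM in OC (log2 fold change 0.53, limma adjusted p = 0.00852). The other higher genes were Mmp2, Adamts1, Furin and Bmp1, with log2 fold changes of 0.38 to 0.69. Furin lay closest to the threshold (limma adjusted p = 0.0498). The list is broader than these enzyme classes: Furin, for 1, is neither a metalloproteinase nor an enzyme of the GPI anchor. Release of core proteins was not tested. By contrast, the sheddase genes Adam10 and Adam17 had log2 fold changes of -0.02 and -0.03.

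Proteins that bind the cores formed 2 lists. Of 11 tested genes for syndecan cytoplasmic partners, with a median log2 fold change of -0.09, 1 was higher and 2 were lower (3 lower with the replicate block, where Cask also passed, at a log2 fold change of -0.20 and an adjusted p of 0.0487). The higher gene was Actn1 (α-actinin 1), with a log2 fold change of 0.36. Ezr, which encodes the membrane-actin linker ezrin, had 22.75, 23.09 and 22.77 FPKM in PAKG, against 29.24, 29.58 and 28.60 FPKM in OC (log2 fold change -0.35, limma adjusted p = 0.00842, and 0.0590 without PAKG 3). Sdcbp encodes syntenin, the PDZ protein that binds the tail end printed above, and had 29.46, 28.06 and 29.24 FPKM in PAKG, against 36.74, 33.12 and 38.08 FPKM in OC (log2 fold change -0.31, limma adjusted p = 0.0302). Its call was lost without PAKG 1 (0.0741), PAKG 3 (0.114), OC 1 (0.1) or OC 3 (0.125), with no filter (0.0506) and in eBayes with no trend (0.0536). Of 12 tested basement membrane genes, with a median log2 fold change of -0.01, 1 was higher and 0 were lower (2 higher with the replicate block). Lamb2, the laminin β2 chain, had 46.39, 50.49 and 45.74 FPKM in PAKG, against 33.25, 37.61 and 29.04 FPKM in OC (log2 fold change 0.52, limma adjusted p = 0.0151; 0.0515 without PAKG 3, 0.0533 without OC 1 and 0.0512 without OC 3).

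Growth factors that bind heparan sulfate formed the last list. Of 22 genes listed 11 were tested, with a median log2 fold change of 0.41, and 5 were higher and 1 was lower at adjusted p under 0.05 in limma. With the replicate block 7 were higher and 1 lower, the gains being Ptn (log2 fold change 0.23, adjusted p = 0.0402) and Cxcl12 (0.21, adjusted p = 0.0413). Tgfb1 had a log2 fold change of 0.80 (limma adjusted p = 0.000543). Fgf7, a fibroblast growth factor that acts on epithelia, had 26.58, 21.90 and 24.16 FPKM in PAKG, against 35.35, 36.54 and 38.13 FPKM in OC (log2 fold change -0.60, limma adjusted p = 0.00395). The other higher genes were Pdgfa, Pdgfb, Bmp4 and Vegfa, with log2 fold changes of 0.41 to 0.96. Fgf2 had 0.97, 1.03 and 1.04 FPKM in PAKG, against 0.90, 1.13 and 0.04 FPKM in OC (log2 fold change 1.00, limma adjusted p = 0.431). The difference came from OC 3, since the same-numbered differences were 0.10, -0.12 and 3.03.

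**Figure D5:**
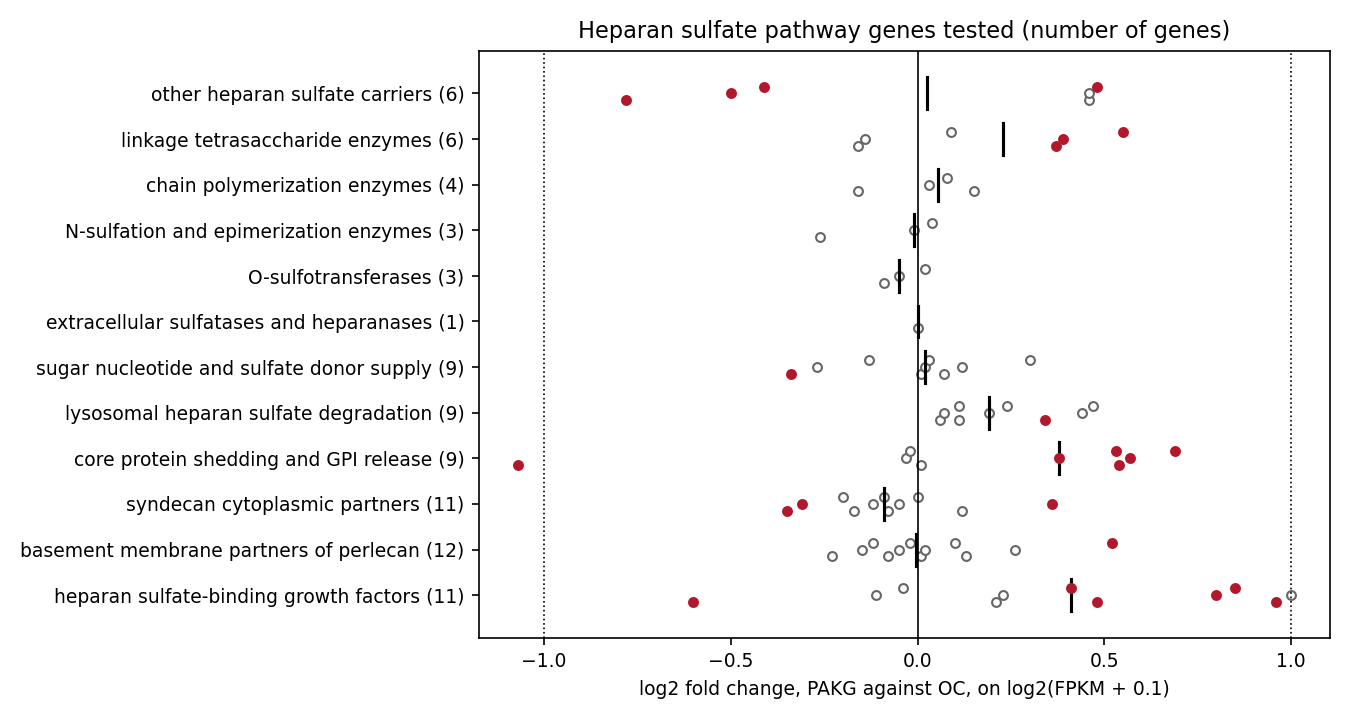
Log2 fold change, PAKG against OC, on the log2(FPKM + 0.1) scale, of every tested gene of 12 heparan sulfate lists, 1 list per row with its number of tested genes in parentheses. Filled points passed an adjusted p under 0.05 in limma, vertical bars give list medians and dotted lines a 2-fold change. Notum at -1.07 is the only filled point beyond a dotted line.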

How the data were processed

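Poly(A) RNA of 3 PAKG and 3 OC samples was sequenced by a service provider from stranded libraries. The authors deposited FPKM per gene, rounded to 2 decimals, in 1 table per library; the build GRCm38 and the tools HISAT2, StringTie, cutadapt, FastQC and DESeq2 stand in the submitters' processing notes. Tool versions, the annotation release and any use of strand in counting: not given in the sources used here. Reads from a gene and an antisense partner may therefore not be told apart.

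Since FPKM cannot enter a count model, the 12590 genes averaging 0.5 FPKM or more were compared on log2(FPKM + 0.1) with limma 3.58.1 in R 4.3.3 (eBayes with trend, 2-sided, Benjamini-Hochberg over all genes tested); the pseudocount of 0.1 understates changes of low genes. Prior and residual degrees of freedom of this main fit were 3.54 and 4, and the replicate block leaves fewer residual ones. Each symbol carried by more than 1 gene ID (45 symbols) was read from the ID with the highest mean. Depth was estimated from the lowest values of genes up to 600 bases, since no counts were used. Exact permutation tests used scipy 1.17.1, and figures matplotlib 3.10.9. The fit was tested on simulated data.

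Members and lists were chosen with earlier results of these data known. Named genes are the members, in each list up to 3 genes past both thresholds or else up to 2 at adjusted p under 0.05, and the 4 genes most like the member with the smallest adjusted p; other genes were named after their values were seen. The result of 1 gene that meets this rule is left out here. Deviations from group means correlated at 0.240, 0.430 and 0.192 between samples with the same replicate number and at -0.312 to 0.138 between others, so the numbers were taken as pairing the samples, and the replicate block is given where it changes the call of a member or the count of a list; neither the labels nor the methods say what a number marks. Alternatives were a filter at 1 FPKM or none, pseudocounts of 1 and 0.01, scaling by median ratios or to a common total (TPM), eBayes with no trend, the block, each library left out, and replicate 2 of both groups left out. Coordinates and transcripts are from GENCODE M21 on GRCm38, and promoter windows from RefSeq.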

Additional observations from a re-analysis of the deposited data

How the results depend on the processing

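The count of members past both thresholds was 0 under all 15 alternatives. The count at adjusted p under 0.05 was 4 as reported and 8 with the replicate block (6 higher and 2 lower). It was 3 with libraries rescaled to a common total, 5 with replicate 2 of both groups left out, and 3 to 4 when each library was left out in turn. The share of all genes called was 14.7% as reported and 29.5% with the block. It is not given here for the other alternatives, so their counts cannot be set against a background. No member and none of the 15 other named genes changed direction. Over the 8 members, 109 comparisons with an alternative kept their side of the threshold, 6 lost it (all Sdc2) and 5 gained it: Gpc4, Gpc6, Sdc1 and Hspg2 with the replicate block, and Hspg2 with replicate 2 of both groups left out. The block changed the call of no other member. Of the 15 other named genes, 9 lost their call under at least 1 alternative, in 38 of the comparisons. The causes were not tested. The median log2 fold change of all genes moved between -0.038 and 0.013, so no scaling shifted all genes by over 0.1. Precision is limited by 3 samples a group, and Gpc3 was at 0 FPKM in 5 libraries and 0.02 FPKM in OC 1. Notum, with a mean under 1 FPKM, has no value with the filter at 1 FPKM, and its log2 fold change was -0.44 with a pseudocount of 1.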
